A study of Drosophila melanogaster with 2 samples.

Results

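The Hippo pathway genes described here are 10 genes chosen by symbol: hpo, sav, wts, Mer, ex, kibra, ft, ds, yki and sd. They were set against all 13945 protein-coding genes of the 6 chromosome arms, of which they are a part. Binding was read from chromatin immunoprecipitation and sequencing (ChIP-seq) of Mad, the Smad protein that carries the Dpp (BMP) signal to the nucleus. The samples were whole embryos of the fly *Drosophila melanogaster*, pooled over sexes and collected at 0 to 24 h, from 1 transgenic line that stably carries Mad with eGFP fused to its C terminus, precipitated with an antibody against GFP. There were 2 biological replicates of this 1 group and no second genotype, treatment or time, so every value is a level and no condition was compared. Whole embryos mix all tissues and stages of that day, so a peak does not say in which cells Mad-eGFP was bound. Each replicate came from its own biosample record, while both share the line.

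A member was called bound when the summit of a kept peak lay in its annotated span or within 5 kb of it. Kept peaks are the 3590 that passed the authors' threshold on the irreproducible discovery rate. Weaker peaks are the rest of the authors' pooled list of 30000 peaks from both replicates, and each replicate also has a list of 30000 peaks of its own. Peak strength is given as the authors' own signal per peak, used to describe and rank peaks within a list; neither its formula nor the read depth is stated in the sources used here. Among kept peaks the signal ran from 70.5 to 1447, with a median of 106.

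In the fly, the Hippo pathway limits organ growth through a chain of kinases. Hpo with its scaffold Sav activates Wts, which phosphorylates the coactivator Yki and keeps it out of the nucleus, and free Yki works with the DNA-binding protein Sd on growth genes. Mer, Ex and Kibra feed into the kinases from the apical cortex of epithelial cells, and the cadherins Ft and Ds feed in from cell contacts. Yki and Mad are known to act together on the microRNA gene bantam in growing imaginal discs.

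The sequences below are shown because they underlie the kept peaks on which the description of single members rests. All are from the plus strand of the NCBI release 6 genome (dm6), 5′ to 3′, and run to at most 100 bp on each side of the summit, without annotated UTR. Capitals mark matches to the searched words on either strand. In order of appearance these are the DREF word TATCGATA, the word CAGGTAG bound by Zelda, the GC-rich Mad word GNCGNC with the Brk word GGCGCC, and the GAGA factor word GAGAG.
The peak beyond the 3′ end of sav, at chr3R:23054083-23054231, holds TATCGATA 2 times, the first starting 1 bp from the summit and the second 12 bp from it.
sav, p53 start: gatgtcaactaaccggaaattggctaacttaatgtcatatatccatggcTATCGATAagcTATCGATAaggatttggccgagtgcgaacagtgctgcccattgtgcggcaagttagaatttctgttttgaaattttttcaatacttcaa
The stretch just upstream of the start of kibra, at chr3R:14724262-14724338, holds TATCGATA 1 time.
kibra, own start: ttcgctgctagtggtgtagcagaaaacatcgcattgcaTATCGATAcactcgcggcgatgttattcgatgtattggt
The weakest kept peak of kibra, in an intron at chr3R:14707022-14707222, holds CAGGTAG across its summit, read on the minus strand.
kibra, intron: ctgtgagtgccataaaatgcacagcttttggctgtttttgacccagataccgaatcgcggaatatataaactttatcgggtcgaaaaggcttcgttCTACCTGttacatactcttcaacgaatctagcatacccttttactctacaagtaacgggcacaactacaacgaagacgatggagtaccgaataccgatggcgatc
The peak at the start of Mer, at chrX:19693284-19693435, holds GGCGCC, which is also a match to GNCGNC, and a further GNCGNC.
Mer, own start: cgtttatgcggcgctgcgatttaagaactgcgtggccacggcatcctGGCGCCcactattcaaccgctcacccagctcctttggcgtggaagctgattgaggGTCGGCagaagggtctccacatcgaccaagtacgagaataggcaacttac
The peak upstream of wts, at chr3R:30808461-30808616, holds GNCGNC in capitals 2 times and GAGAG on the minus strand.
wts, cindr start: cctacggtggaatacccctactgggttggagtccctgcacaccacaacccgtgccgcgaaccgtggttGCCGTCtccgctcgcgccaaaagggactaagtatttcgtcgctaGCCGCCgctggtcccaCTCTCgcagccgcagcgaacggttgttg
The strongest peak of ex, in an intron at chr2L:442012-442212, holds GAGAG on the minus strand.
ex, intron: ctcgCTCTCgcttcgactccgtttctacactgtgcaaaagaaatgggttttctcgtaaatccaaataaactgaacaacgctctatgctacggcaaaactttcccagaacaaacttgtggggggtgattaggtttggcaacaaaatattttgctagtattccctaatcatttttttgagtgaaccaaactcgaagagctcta
The single kept peak of ds, in intergenic sequence at chr2L:715488-715688, holds none of the 10 words searched.
ds, upstream: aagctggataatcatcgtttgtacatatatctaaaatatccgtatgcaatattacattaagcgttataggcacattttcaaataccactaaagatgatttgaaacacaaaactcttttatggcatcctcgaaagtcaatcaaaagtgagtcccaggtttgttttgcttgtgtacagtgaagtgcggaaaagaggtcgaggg

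Of the 10 members, 8 were bound, against 6393 of the 13945 protein-coding genes (45.8%). Long genes take in more summits, and when the 13945 genes are split into 10 equal groups by span length, the bound shares in the members' own groups add up to 5.55 bound genes among 10. Only ft and sd had no kept summit. A narrower count, of genes with a kept summit within 500 bp of one of their own starts, gave 4 members, hpo, Mer, ex and kibra, against 19.7% of all genes. When each summit was given only to the protein-coding gene with the nearest start, 6 members had at least 1, against 19.4% of all genes. These were hpo, wts, Mer, ex, kibra and ds. The members were named with earlier results of these data in view, so no test was made on the counts.

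**Figure D1:**
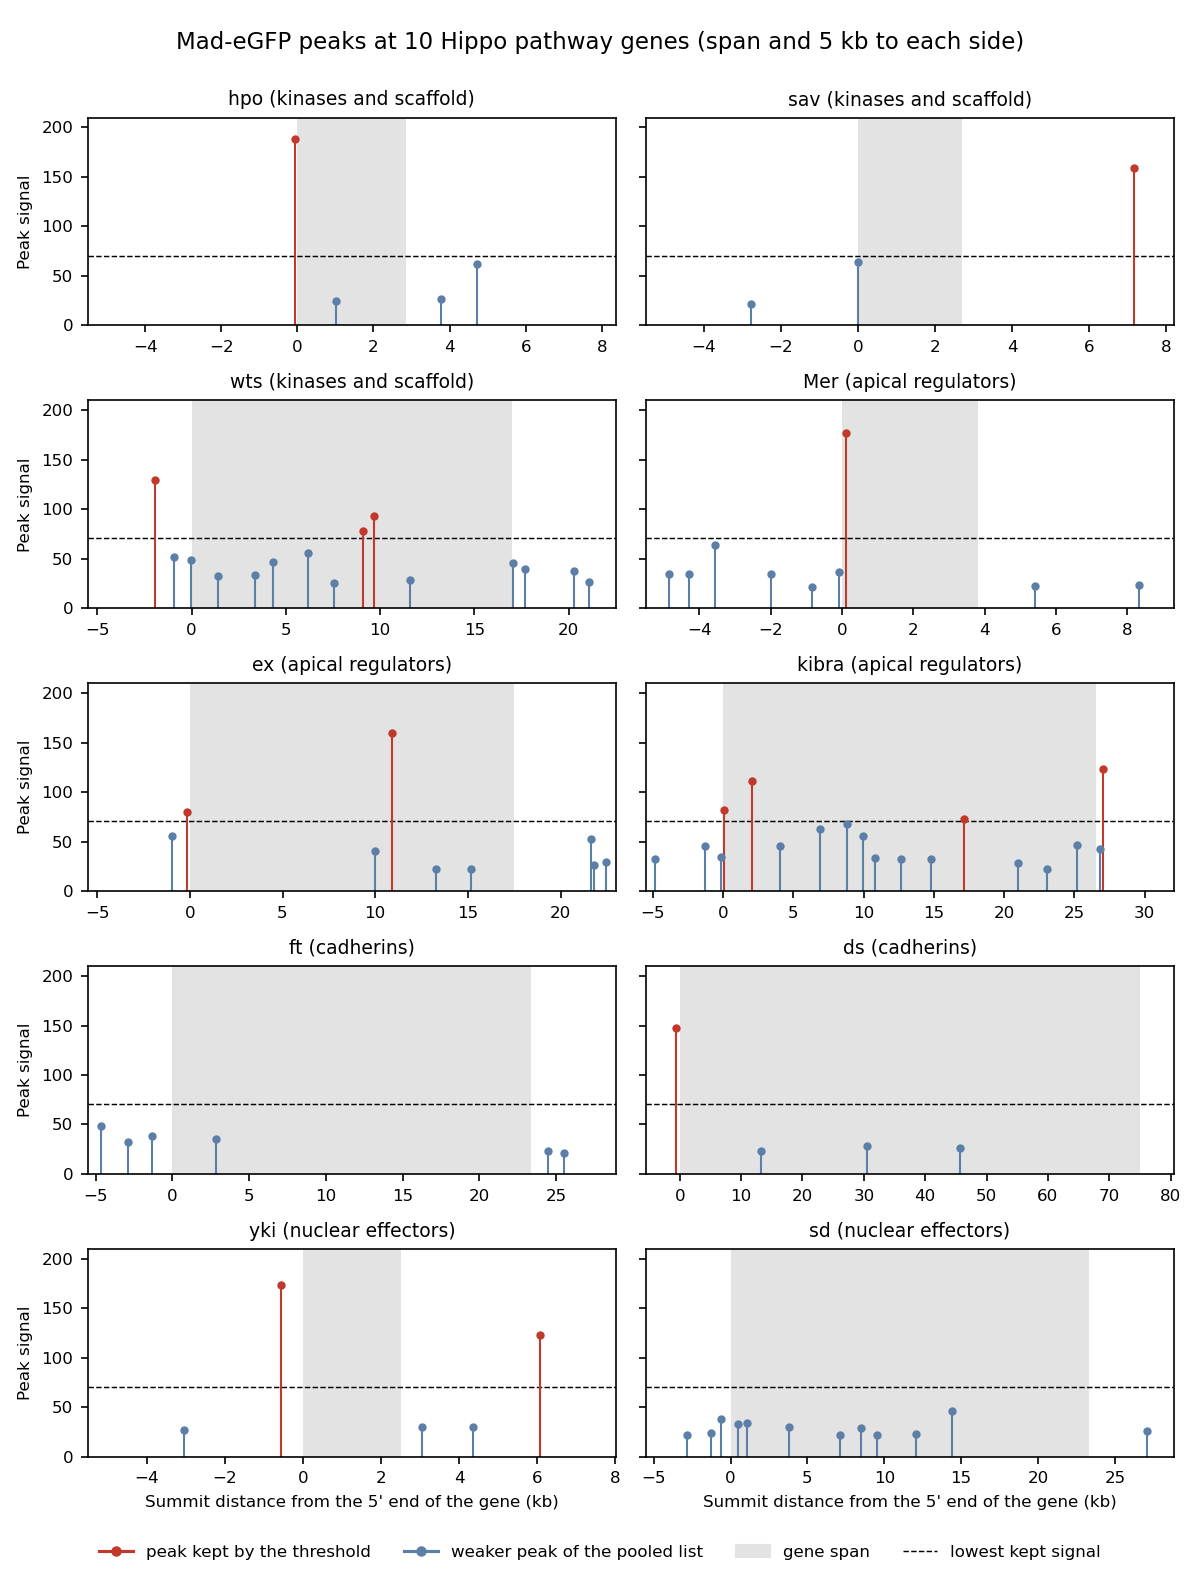
Signal of every pooled peak (vertical axis) at each of the 10 genes against the distance of its summit from the 5′ end of the gene (kb, horizontal axis); grey marks the gene span, red the kept peaks, blue the weaker ones, and the dashed line the lowest kept signal of 70.5. Red peaks stand at the 5′ end of hpo, Mer, ex and kibra, just upstream of ds and yki, and outside the span of sav, while ft and sd have blue peaks alone.

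The kinases and their scaffold showed 3 different arrangements. hpo, the upstream kinase (2R, minus strand, span 2861 bp), had a single kept peak at chr2R:19496724-19497119, whose summit lay 66 bp upstream of its start. Its signal of 188 was the highest among the members and placed it at rank 564 of 3590. The peak reached 77.0 in replicate 1 and 99.3 in replicate 2. The start of CG15120, which points the other way, lay 830 bp from the same summit.

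sav, the scaffold (3R, minus strand, span 2696 bp), was bound only through a neighbour. Its kept peak, at chr3R:23053933-23054328 with signal 159 and rank 822, lay 4478 bp beyond the 3′ end of sav and 49 bp upstream of the start of p53, the fly counterpart of the tumour suppressor gene. It reached 75.2 in replicate 1 and 81.6 in replicate 2. The start of sav carried a weaker peak 4 bp downstream, with a pooled signal of 63.9, just under the lowest kept signal, at rank 4181 of 30000. That weaker peak was in both replicate lists, at 33.4 in replicate 1 and 29.5 in replicate 2, and Ublcp1 starts 193 bp away from it.

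wts, the kinase that phosphorylates Yki (3R, minus strand, span 16995 bp), had 3 kept peaks. The strongest, at chr3R:30808363-30808758 with signal 130, lay 56 bp upstream of the start of cindr, an adaptor protein gene, and 1942 bp upstream of wts. It reached 62.6 in replicate 1 and 68.0 in replicate 2. The other peaks, with signals of 93.1 and 78.3, formed a pair inside a wts intron whose summits were 588 bp apart, 9688 and 9100 bp from the start. They reached 43.6 and 44.1 in replicate 1, and 48.6 and 34.4 in replicate 2. The start of wts had a weaker peak 16 bp upstream, with a pooled signal of 48.8 at rank 6482. It was 1 of 12 weaker peaks in the wts window, of which 6 lay inside the gene.

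Among the apical regulators, Mer, ex and kibra each carried a kept peak at the start, and kibra held more kept peaks than any other member. Mer, the fly Merlin gene (X, minus strand, span 3804 bp), had 1 kept peak at chrX:19693186-19693581, with signal 177 and rank 650. Its summit lay 116 bp downstream of the start, and it reached 75.3 in replicate 1 and 97.8 in replicate 2. The strongest of 8 weaker peaks in the window, at 63.9, sat 24 bp from the start of Cdc42, a small GTPase gene.

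ex, the FERM-domain partner of Mer and a known target of Yki (2L, plus strand, span 17475 bp), had its stronger peak inside the gene. This intronic peak, at chr2L:441914-442309 with signal 160 and rank 816, lay 10885 bp downstream of the start of ex, and the nearest start was that of crq, 9190 bp away. It reached 55.9 in replicate 1 and 94.4 in replicate 2, the widest gap between replicates among the member peaks. Its rank was 713 in the list of replicate 2 and 1422 in that of replicate 1. The peak at chr2L:430859-431254, 170 bp upstream of the start, was weaker, with signal 80.0 and rank 2914. It reached 31.5 in replicate 1 and 48.7 in replicate 2. Another weaker pooled peak, with signal 56.0, lay 940 bp upstream of the start.

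kibra, a WW-domain scaffold gene (3R, minus strand, span 26573 bp), had 4 kept peaks, with ranks between 1373 and 3400. The strongest, at chr3R:14697013-14697408 with signal 123, lay 478 bp past the 3′ end of kibra and 81 bp downstream of the start of Meltrin, a metalloprotease gene. The next, with signal 111, was intronic at chr3R:14721985-14722380, 2078 bp downstream of the start of kibra. The summit at chr3R:14724040-14724435 lay 23 bp downstream of the start, with signal 81.9. The last, at chr3R:14706924-14707319, was intronic with signal 73.1. In replicate 1 these 4 peaks reached 49.7, 48.5, 39.4 and 40.6, and in replicate 2, in the same order, 73.3, 58.7, 50.5 and 37.5. Of the 14 weaker kibra peaks 8 were in introns, the highest at 68.1.

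The cadherin genes, both long, had 1 kept peak between them. ds, which encodes the ligand of Ft (2L, minus strand, span 74971 bp), had 1 kept peak at chr2L:715390-715785, 605 bp upstream of its start in intergenic sequence. The signal was 147 at rank 959, with 65.4 in replicate 1 and 79.8 in replicate 2. Inside the span of ds were just 3 pooled peaks, with signals of 28.1, 25.9 and 23.5. This gave ds 0.471 pooled peaks per 10 kb, at percentile 12.8 within the longest of the 10 length groups. ft, which encodes the receptor (2L, minus strand, span 23393 bp), had 6 pooled peaks and none kept. Counted in the same way, this was 1.80 pooled peaks per 10 kb, at percentile 37.4 within the same length group. The strongest, with signal 48.9 at rank 6452, lay 546 bp from the start of CG3702 and 4638 bp upstream of ft. It was in the list of replicate 1, at 37.4, and had no overlapping peak in that of replicate 2. Neither ft nor ds had a pooled summit within 500 bp of its own start.

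The nuclear effectors differed from each other. yki, the coactivator gene (2R, minus strand, span 2511 bp), had kept peaks on both sides, each at a neighbour's start. The first, at chr2R:24068991-24069096 with signal 174 and rank 673, had its summit 1 bp upstream of the start of Gpat4, a glycerolipid synthesis gene, and 564 bp upstream of yki, which points the other way. It overlapped 2 peaks in replicate 1, the stronger at 84.9 with its summit 197 bp from the kept one and 367 bp from the start of yki, and the other at 64.5 with its summit 10 bp from the kept one. In replicate 2 it overlapped 1 peak, at 102, with its summit 16 bp from the kept one. The signal of 84.9 used for replicate 1 at this peak is therefore that of the stronger and not of the closer peak. The second, at chr2R:24062214-24062609 with signal 123, lay 19 bp downstream of the start of RpL39, a ribosomal protein gene, and 3563 bp beyond the end of yki. It reached 51.5 in replicate 1 and 72.0 in replicate 2. Inside the span of yki there was no pooled summit.

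sd, the TEAD-family partner of Yki (X, plus strand, span 23313 bp, 7 annotated starts), had 12 pooled peaks, and none was kept. The strongest, with signal 46.1 at rank 7090, was intronic, 644 bp downstream of one of the starts. It had no peak in replicate 1 and reached 38.9, rank 3681, in replicate 2. Within 500 bp of a start of sd the strongest pooled peak had a signal of 34.0, with 11.7 in replicate 2 and no overlapping peak in replicate 1. The strongest sd peak in the list of replicate 1, at 16.5 and rank 16166, lay 42 bp from another position annotated as a start of sd. Only 2 of the 12 were in both replicate lists.

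Together the bound members held 15 kept summits. Of these, 9 lay within 500 bp of an annotated start, against 2181 of all 3590 kept summits (60.8%), 5 lay in introns (33.3%, against 26.8%), and 1 lay between genes, against 359 of all kept summits. Of the 9 promoter summits, 4 were at the start of the member itself and 5 at that of a neighbour, p53, cindr, Meltrin, Gpat4 or RpL39. Among protein-coding genes, the nearest start was that of the member for 8 summits and of another gene for 7. The strongest peak was nearest the member's own start in 3 of the 8 bound members, hpo, Mer and ds, against 31.3% of all bound genes. The median of the strongest signal was 159 over the bound members, against 125 over all bound genes, without matching by span length. Of the 15 peaks 10 were above the median rank of the kept list. Among the 1000 strongest of its 3590 peaks were 6 of the 15, at hpo, sav, Mer, ex, ds and yki. In the replicates' own lists 2 of these peaks fell outside the 1000 strongest. The ex peak had rank 1422 in replicate 1, and the ds peak had rank 1028 in replicate 1 and 1013 in replicate 2.

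Counting the weaker peaks as well, 7 of the 10 members had a pooled summit within 500 bp of an own start, against 55.0% of all genes. These were kept at hpo, Mer, ex and kibra and weaker at sav, wts and sd. The 70 weaker summits at the members had signals between 21.5 and 68.1. A peak overlapped in both replicate lists for 36 of them (51.4%), against 50.5% of all 26410 weaker peaks. At 3 of the 36, near the kept peaks of Mer and kibra, the strongest overlapping replicate peaks were those already matched to the kept peak. Lower replicate peaks also overlapped these 3, at 23.7 in replicate 1 at Mer, and at 25.2 and 21.2 in replicate 2 at kibra. The weaker peaks of 52.3 and 26.6 near the start of crq, in the ex window, shared the same replicate peaks, at 23.3 in replicate 1 and 25.2 in replicate 2.

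All 15 kept member peaks overlapped a peak in each replicate list. The signal was higher in replicate 2 at 13 peaks and higher in replicate 1 at 2, the weakest kept peak of wts and the weakest of kibra. Replicate 2 was also higher at 75.7% of the 3585 kept peaks matched in both lists. The median log2 ratio of replicate 2 over replicate 1 was 0.29 at the member peaks, against 0.28 over all matched peaks, with an SD over peaks of 0.46. The peaks that stood more than 1 SD from the median of all were the intronic peak of ex, with a log2 ratio of 0.76, and the weakest kept peak of wts, at -0.36. Of the 15 peaks, 12 matched one of the 3590 strongest peaks in both replicate lists, against 74.7% of all kept peaks. With a single pair of replicates these ratios carry no test.

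**Figure D2:**
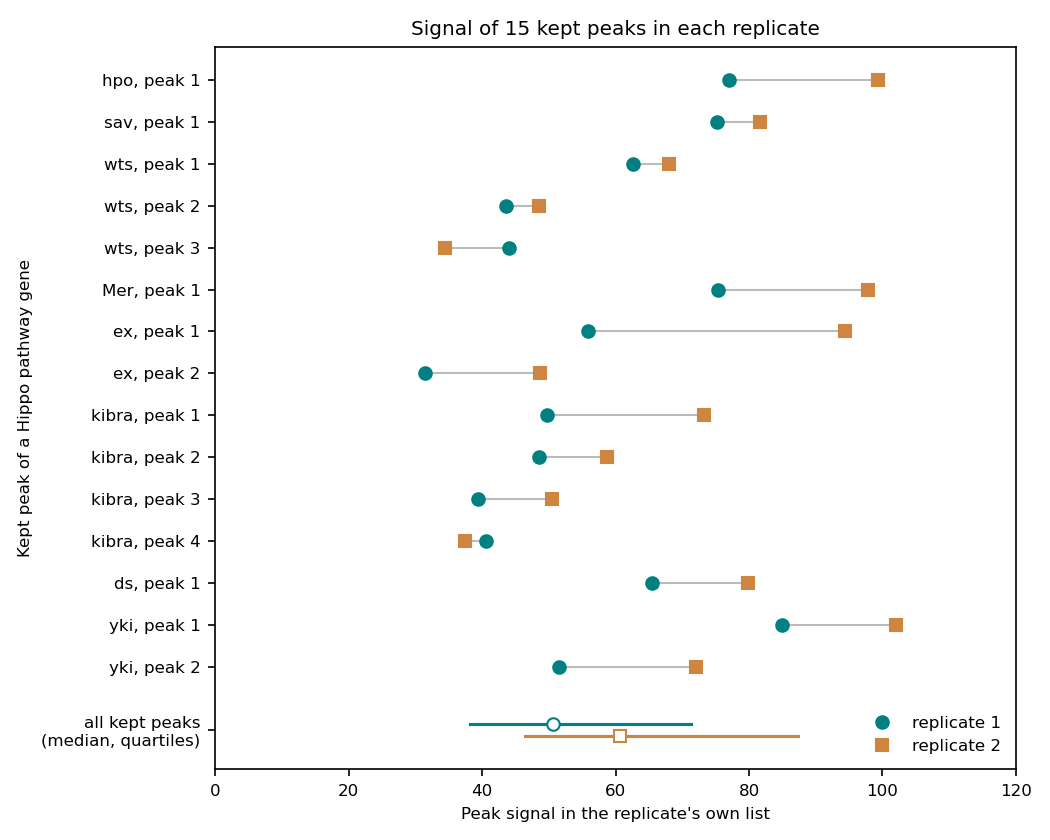
Signal in each replicate's own list (horizontal axis) for the 15 kept peaks of 8 Hippo pathway genes, numbered by pooled signal within a gene, with the median and quartiles of all matched kept peaks below. Replicate 2 (squares) lies to the right of replicate 1 (circles) at 13 of 15 peaks, and the intronic peak of ex (ex, peak 1) spans 55.9 to 94.4.

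The 10 words, all but TAGTGT known as factor sites, were searched in windows of 201 bp around the 15 summits, on both strands. The same search over all 3590 kept summits gave the background. TATCGATA, the site of the promoter factor DREF, was in 4 windows, against 6.16% of all windows. All 4 were promoter windows, of 9 in the members, against 9.77% of all promoter windows. They lie at the starts of hpo, p53 beyond sav, kibra and RpL39 beyond yki, so 2 belong to neighbours. Those at hpo, kibra and RpL39 began 63, 62 and 57 bp from the summit. CATTCC, the core bound by Sd and other TEAD proteins, was in 1 window, at RpL39, against 6.49%. GNCGNC was in 3 windows, at cindr, Mer and kibra, against 28.2%, and GGCGCC was in 1, at Mer, where it is also a match to GNCGNC, against 4.57%. GTCTG, the Smad box, was in 3 windows, at hpo and both yki peaks, against 18.1%. At hpo and at the Gpat4 peak of yki it touched the summit base.

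GAGAG was in 4 windows, at cindr, both ex peaks and a kibra intron, against 22.8%. CAGGTAG was in 1, the weakest kept peak of kibra, against 0.780%. TAGTGT, a further promoter word, was in 3 windows, against 10.4%. The M1BP site GGTCACACT and the E-box CAGCTG were in none, against 3.15% and 10.8%. The median GC content was 42.8% in the member windows, against 36.8% in all, and windows varied between 33.8% at a wts intron and 59.7% at cindr; its part in the matches to GC-rich words was not tested. A match is a description of the letters and not a site shown to be bound.

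Other genes around the pathway were counted by the same rule in 3 further lists. In the branch of Ft and Ds, 4 of 7 genes were bound (57.1%), against 45.8% of all genes. The strongest of these by the nearest-start rule were app, a palmitoyltransferase gene with signal 170, 207 bp upstream of its start, and dco, a casein kinase gene with signal 121, 300 bp upstream. The app peak reached 80.3 in replicate 1 and 89.4 in replicate 2, and the dco peak 40.5 in replicate 1 and 80.5 in replicate 2. fj, lft and Fbxl7 had no kept summit.

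Of 20 other upstream regulators, 14 were bound (70.0%, against 45.8% of all genes), with a kept summit within 500 bp of an own start in 8 of 20, against 19.7% of all genes. The strongest peaks nearest an own start were at ed, a cell adhesion gene (163), Sik3, a kinase gene (115), crb, the apical polarity gene (106), and dlg1, a basolateral scaffold gene (101). The ed summit lay 737 bp upstream and the crb summit 977 bp downstream of a start. The dlg1 peak reached 62.6 in replicate 1 and overlapped no peak in the list of replicate 2. Of 17 partners and targets of Yki, 12 were bound (70.6%), and 7 of 17 had a kept summit at an own start, against the same shares of all genes. The strongest peaks nearest an own start were at Diap1, the inhibitor of apoptosis (210), and nej, the CBP coactivator (208). Next were 14-3-3zeta, a phosphoprotein-binding gene (129), and hth, a homeobox gene whose product works with Yki (125). Of these summits only that of 14-3-3zeta lay within 500 bp of an own start, 14 bp upstream. The nej peak lay 710 bp upstream, and the hth peak was intronic, 16511 bp downstream. The Diap1 peak lay 702 bp downstream of a start and reached 116 in replicate 1 and 96.5 in replicate 2. The length groups alone add up to 3.77, 11.2 and 9.92 bound genes in the 3 lists. The median strongest signals of the bound genes were 131, 101 and 127 in the same order, against 125 for all bound genes. Span length was again not matched for these medians.

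**Figure D3:**
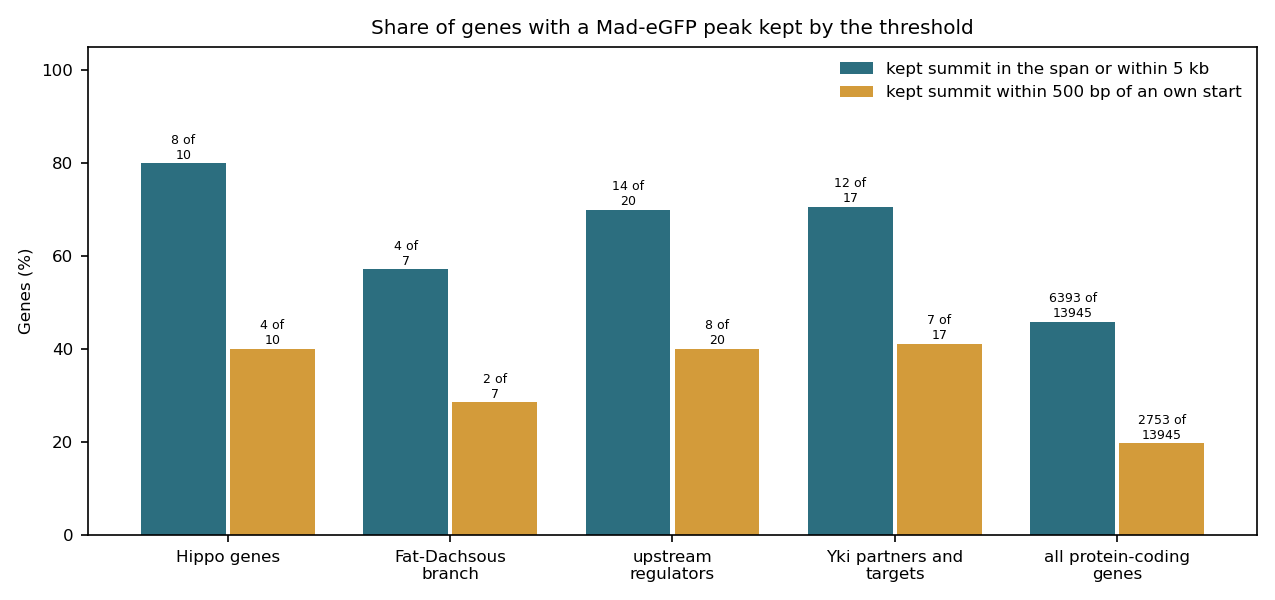
Share of genes (%, vertical axis) with a kept summit in the span or within 5 kb (dark bars) and within 500 bp of an own start (light bars) for the Hippo genes, the 3 further lists and all protein-coding genes, with the counts above the bars. The Hippo genes reach 8 of 10 and 4 of 10, against 6393 and 2753 of 13945.

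bantam, named mir-ban in the annotation, encodes a growth-promoting microRNA that Yki and Mad are known to drive together, and it was looked at separately for that reason. Its hairpin gene at chr3L:642208-642288 had 4 kept peaks and 8 pooled ones within 5 kb. Under the same rule 2.28% of protein-coding genes, all of them with longer spans, had at least 4 kept peaks. The 4 kept summits spanned 4549 bp. The signals were 205 at 1400 bp upstream, 196 at 2093 bp downstream, 87.5 at 755 bp downstream and 74.4 at 2456 bp upstream of the hairpin's first base. In replicate 1 they reached 81.8, 73.4, 45.2 and 40.3, and in replicate 2, in the same order, 128, 122, 51.3 and 30.0. The 3 peaks other than the one at 2093 bp lay in lncRNA:CR43334, a transcript that covers the hairpin. The window of the third peak, at chr3L:642863-643063, is shown because it holds both CATTCC and GNCGNC, marked in capitals. No other of the 4 windows held CATTCC, and the windows of the peaks at 205 and 196 held neither word.
mir-ban, downstream peak: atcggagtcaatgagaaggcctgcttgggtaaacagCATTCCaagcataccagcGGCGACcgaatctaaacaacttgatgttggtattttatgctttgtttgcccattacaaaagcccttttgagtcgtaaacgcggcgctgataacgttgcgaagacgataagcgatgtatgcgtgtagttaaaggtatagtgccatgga

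**Figure D4:**
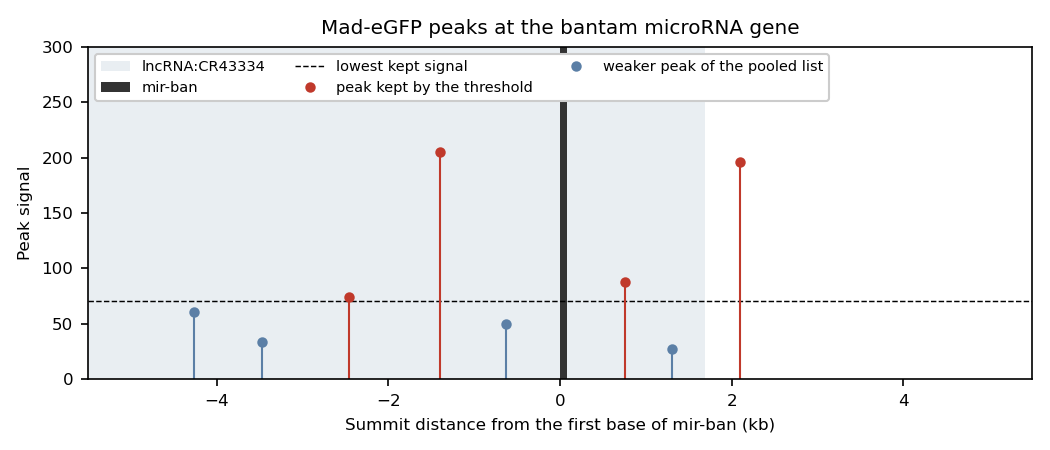
Signal of pooled peaks (vertical axis) against the distance of the summit from the first base of mir-ban (kb, horizontal axis); the dark bar is the hairpin gene, the pale area lncRNA:CR43334, and the dashed line the lowest kept signal. The highest red peaks, at 205 and 196, stand on opposite sides of the hairpin, and 4 weaker peaks lie between 27.2 and 60.8.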

How the data were processed

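The peak lists were made by the authors on build dm6, 1 per replicate, 1 on both replicates pooled and 1 cut by irreproducible discovery rate, and the deposited texts record that they derive from alignments and a control. The signal in these deposited lists is the authors' value per peak. The deposited −log10 q values were not used to rank. Control data and the dm3 lists were not used here. Aligner, caller and depth: not given in the sources used here.

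Summits (start plus the deposited offset) were placed, counting from 1, on Ensembl release 115 genes without transposable elements and on the NCBI release 6 sequence, where 99.5% of 30748 coding transcripts begin with ATG. A summit within 500 bp of any start was a promoter summit, and other summits were classed by UTR first, then by coding or other exon, intron, and last intergenic sequence. Replicate peaks were matched by an overlap of at least 1 bp, taking the highest signal. Expected counts sum the bound shares of the members' groups, of 10 equal groups by span length. Distances to neighbours use protein-coding starts. The named genes are all members, the genes with the starts nearest their peaks, and up to 4 genes per further list by signal among those with a kept summit nearest an own start. The members and lists were chosen with earlier results of these data known. In the lists the symbol d was read as dachs. Python 3.11.15, numpy 2.4.6 and matplotlib 3.10.9 were used, and the scripts were tested on simulated data. No test was run, because there is 1 group of 2 replicates.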

Additional observations from a re-analysis of the deposited data

How the results depend on the processing

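The count of bound members was 7 with a span extended by 1 kb, which dropped sav, and 8 with 10 kb or with peak overlap in place of the summit. The share of all genes was 28.0% with 1 kb, 59.2% with 10 kb and 46.6% with peak overlap. Within 500 bp of an own start 4 members and 19.7% of genes were counted, by nearest start 6 members and 19.4%, and in the 1000 strongest peaks 6 members and 18.2%, without wts and kibra. Using the 3590 strongest peaks of one replicate's list, the members bound were 8 without replicate 1 and 9 without replicate 2, where ft was added. Leaving out a replicate put the rank of the strongest peak between 638 and 723 at hpo, 758 and 966 at sav, 1133 and 1383 at wts, 656 and 756 at Mer, 713 and 1422 at ex, 1176 and 1801 at kibra, 1013 and 1028 at ds, and 598 and 599 at yki. With 50 bp to each side of the summit, the member windows with a match, of 15, were 0 for CATTCC (3.09% of all windows), 0 for GGCGCC (2.53%), 1 for GAGAG (10.6%), 1 for TATCGATA (3.20%) and 1 for TAGTGT (5.52%). With 200 bp they were 2 for CATTCC (13.6%), 9 for GNCGNC (54.9%), 8 for GTCTG (36.4%), 2 for CAGGTAG (2.14%) and 2 for GGTCACACT (5.49%). Promoter summits numbered 9 at 250 bp and 10 at 1000 bp. With replicate peaks matched by summits within 100 bp, all 15 member peaks were matched, with a median log2 ratio of 0.36. With an overlap of at least 0.5 of each peak, 14 were matched, with a median of 0.32. The median over all kept peaks is not given here for these 2 settings. No paired analysis was possible because there is 1 group. The signal's unknown formula and the unknown depth limit comparisons to ranks within a list.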
